A study of Rattus norvegicus with 12 samples.

Results

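Broad acetylated domains were examined in primary vascular smooth muscle cells of the rat, the contractile cells of the arterial wall. A domain here is a stretch of at least 3000 bp that remains after the peaks of all 12 deposited lists were merged wherever they overlapped by at least 1 bp. This rule kept 675 of 23333 merged regions (2.89%), and these held 2.73 of the 25.1 Mb that the lists covered together (10.9%). The domains were thus chosen by the peak positions of all 12 lists, both conditions included. The lists come from CUT&Tag, in which an antibody to a chromatin mark tethers a transposase that cuts and tags the DNA beside it. The 3 marks were acetyl groups on histone H3 at lysine 23 (H3K23ac) or lysine 27 (H3K27ac), and on histone H4 at lysine 5 (H4K5ac). Each mark was profiled in 2 libraries of a condition labelled NC and 2 of a condition labelled SIANK, numbered 1 and 2. The labels spell out neither name and give no animal, age, dose or time, and nothing says whether libraries 1 and 2 came from separate cultures, so p-values over libraries measure only a spread that may be technical.

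Acetylation of histone tails loosens their contact with DNA and provides docking sites for bromodomain proteins, which help recruit the transcription machinery. H3K27ac is the usual mark of active promoters and enhancers, and long unbroken stretches of it are known from clusters of strong enhancers and from the promoters of highly active genes, often genes that define the cell type. H3K23ac and H4K5ac are also found at active chromatin, and H4K5ac is among the marks that bromodomain proteins of the BET family read.

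The lists differ greatly in size, from 100 peaks (H4K5ac NC 1) to 17141 (H3K23ac SIANK 2), and covered 0.0449 to 17.6 Mb. They hold positions and lengths without read counts, so the depth behind a covered or uncovered base is unknown. A base outside every peak of a list was not called there, which is not evidence that it lacked the mark. No genome or annotation of the lists' build was used, so domains are given by position as deposited, without genes or sequence, and the smooth muscle identity of the cells was not checked against marker genes.

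Most domains were only slightly longer than the limit. Their lengths ran from 3002 to 14075 bp with a median of 3647 bp and an upper quartile of 4257 bp, against a median of 850 bp for all merged regions. There were 88 domains of at least 5000 bp and 8 of at least 10000 bp. The shortest domains inside the limit were 3002, 3003 and 3008 bp long, and the longest regions left outside were 2998, 2997 and 2995 bp long, so the limit cuts a continuous range. A single peak of at least 3000 bp in some list was found in 506 domains (74.96%). The other 169 (25.04%) reached that length only because shorter peaks of different lists overlapped. A peak of this length occurred in 1 list for 217 domains, in 2 or more lists for 289, in 5 or more for 90 and in 8 or more for none.

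For both H3 marks, SIANK lists had long single peaks in more domains than NC lists of the same number. H3K23ac had a peak of at least 3000 bp in 128 and 127 domains in NC 1 and NC 2, and in 144 and 369 in SIANK 1 and SIANK 2. H3K27ac had one in 1 and 194 domains in NC 1 and NC 2, and in 19 and 282 in SIANK 1 and SIANK 2. H4K5ac had none in any of its 4 lists. None of this is scaled to list size. The H3K23ac lists held 12909 and 10720 peaks in NC and 14356 and 17141 in SIANK. The H3K27ac lists held 2644 and 14034 peaks in NC and 4823 and 15413 in SIANK. H3K23ac SIANK 2 stands apart, since it alone supplied the only such peak of 109 domains, against 38 for H3K27ac SIANK 2 and at most 25 for any other list. Over the marks, 221 domains had a peak of this length in both conditions, 240 only in SIANK lists and 45 only in NC lists. Merging the 6 SIANK lists alone gave 570 regions of at least 3000 bp, and merging the 6 NC lists alone gave 325. These counts are part of what chose the domains and were not tested. The 12 lists gave 562 domains without H3K23ac SIANK 2, 608 without H3K27ac SIANK 2, and 446 without either.

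Nearly all domains held both marks of histone H3, and few held H4K5ac. All 675 held an H3K23ac peak (90.4% of all merged regions did), 670 (99.3%) an H3K27ac peak (72.3% of all) and 56 (8.30%) an H4K5ac peak (7.86% of all). Merged regions from 1000 to under 3000 bp had nearly the same makeup, with 99.1%, 96.5% and 8.83%, so it is not particular to the domains. H3K23ac was found in 655 and 664 domains in the NC lists and in 668 in each SIANK list, and 643 domains (95.3%) had it in all 4 lists. H3K27ac was found in 669 and 668 domains in NC 2 and SIANK 2, but in 262 and 434 in NC 1 and SIANK 1. The number 1 lists of H3K27ac were thus the usual gap. Of the 675 domains, 253 had peaks in all 8 H3 lists, 213 lacked only H3K27ac NC 1 and SIANK 1, and 173 lacked only H3K27ac NC 1. Being found widely goes with length in part by construction, as a region grows with each list that adds a peak. The share of regions with H3K23ac in all 4 lists was 63.7% among the 8996 merged regions from 1000 to under 3000 bp and 7.46% among the 13662 under 1000 bp.

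The lists differed more in how much of each domain they covered. H3K23ac covered 60.1% and 61.9% of the domain bp in NC 1 and NC 2, and 66.5% and 84.9% in SIANK 1 and SIANK 2. These are means of 61.0% ± 1.31 in NC and 75.7% ± 12.998 in SIANK (SD, n = 2 each). H3K27ac covered 9.52% and 73.0% in NC, and 22.4% and 79.3% in SIANK, with means of 41.2% ± 44.9 and 50.8% ± 40.2 (SD, n = 2 each). The H3K23ac groups did not overlap. Nor did they over all merged regions (45.1% and 39.7% of the bp in NC, 50.2% and 70.3% in SIANK), so this is not particular to the domains. The H3K27ac groups overlapped, with the number 1 lists far below the number 2 lists in both conditions. H4K5ac covered 0.0388% and 0.172% in NC, and 0.290% and 1.48% in SIANK. At least 50% of the domain length was covered by H3K23ac in 449 and 478 domains in NC and in 528 and 650 in SIANK. H3K27ac reached that in 15 and 593 domains in NC and in 88 and 625 in SIANK.

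**Figure D1:**
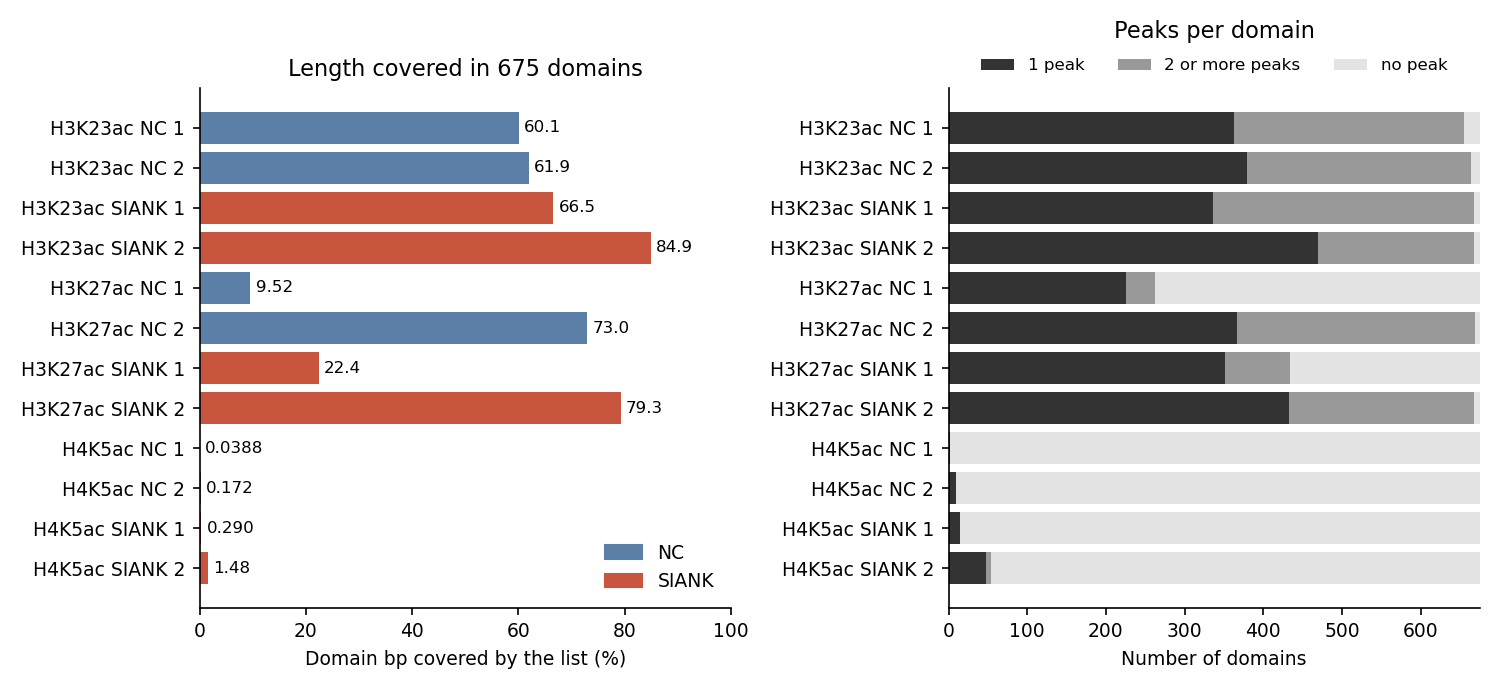
Left, percent of the bp of the 675 domains covered by each of the 12 lists (bars, NC blue and SIANK red). Right, number of domains in which the list has 1 peak, 2 or more peaks or none. H3K23ac SIANK 2 covers the most (84.9%), and the number 1 lists of H3K27ac leave 413 (NC) and 241 (SIANK) domains without a peak.

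In both number 2 SIANK lists of the H3 marks, wider coverage than in NC 2 went with fewer separate peaks. H3K23ac SIANK 2 had 887 peaks in the domains with a mean of 2617 bp of covered length per peak, and NC 1, NC 2 and SIANK 1 had 1015, 1011 and 1082 peaks with means of 1618, 1674 and 1681 bp. Its coverage was a single peak in 469 domains, against 363, 379 and 336 in the other 3 lists. For H3K27ac, NC 2 had 1032 peaks of 1933 bp on average and SIANK 2 had 944 of 2296 bp. The number 1 lists of H3K27ac had 305 (NC) and 529 (SIANK) peaks of 854 and 1159 bp. No list had more than 6 peaks in a domain.

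Each H3 mark covered most of the domain length. Taking any list of a mark, H3K23ac covered 95.5% of the domain bp, H3K27ac 87.2%, and both marks together 82.7%. H3K23ac alone covered 12.8% and H3K27ac alone 4.45%. Of the domain bp, 12.6% were covered by 1 list only and 43.5% by 6 or more, and 7.19% by all 8 H3 lists. The bases of 1 list came mostly from H3K23ac SIANK 2 (3.88% of the domain bp), H3K23ac NC 1 (2.63%), H3K27ac SIANK 2 (2.21%) and H3K23ac SIANK 1 (2.19%).

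Coverage was level over the interior of a domain and dropped towards its ends. In the middle 20% of the length, H3K23ac covered 68.1%, 72.4%, 75.2% and 89.7% of the bp in NC 1, NC 2, SIANK 1 and SIANK 2, and in the outermost 10% at each end 35.5%, 30.7%, 42.7% and 66.3%. H3K27ac covered 12.7%, 80.9%, 27.9% and 86.8% in the middle and 2.97%, 46.1%, 7.41% and 54.8% at the ends, in the same order. A decline at the ends is built into the merging, because the ends belong to whichever list reached farthest. H3K23ac SIANK 2 kept the largest part of its middle coverage there, with a ratio of ends to middle of 0.738 against 0.521, 0.424 and 0.568 in NC 1, NC 2 and SIANK 1.

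**Figure D2:**
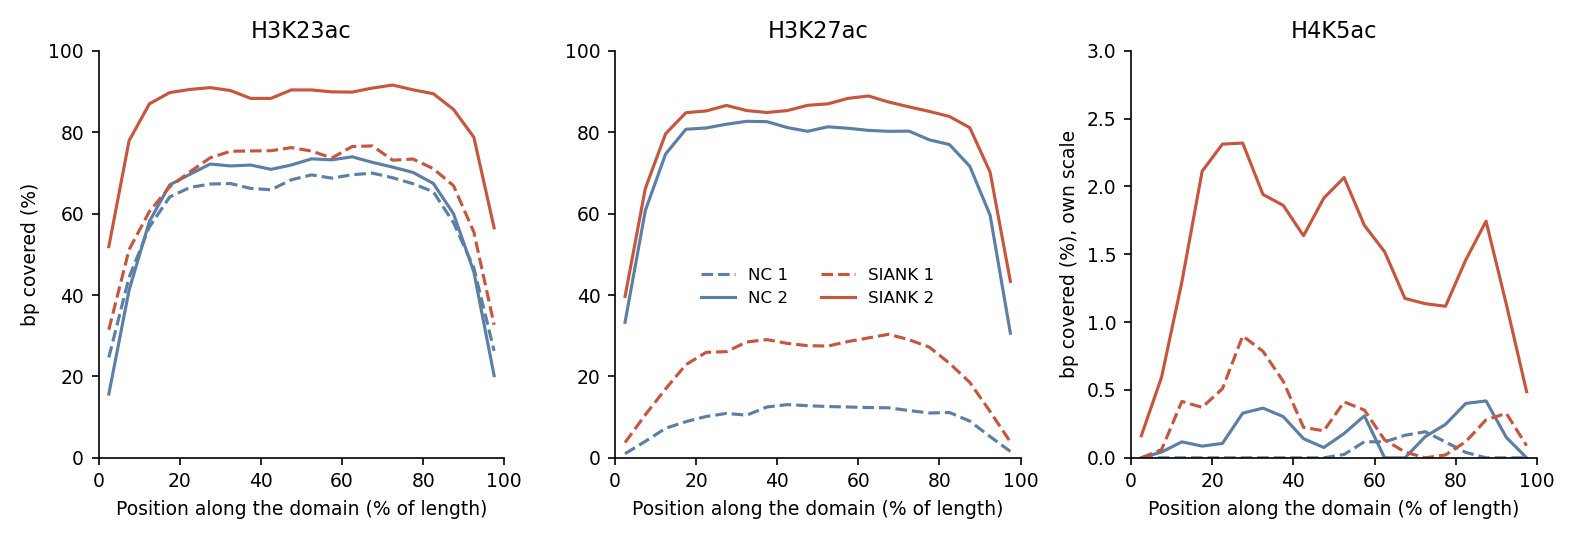
Percent of bp covered (y axis, with its own scale for H4K5ac) in 20 bins along the domain from its start to its end (x axis, percent of length), for NC (blue) and SIANK (red), number 1 dashed and number 2 solid. The H3 marks are level across the interior and fall at both ends, and the H3K27ac number 1 lists run far below the number 2 lists.

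The longest domain lay on chromosome 3 from 160877612 to 160891686 (14075 bp). H3K23ac covered 8288 and 9286 bp of it in NC 1 and NC 2, in 5 and 4 peaks, and 10509 and 11722 bp in SIANK 1 and SIANK 2, in 5 and 3 peaks. H3K27ac covered 489 (NC 1), 11470 (NC 2), 893 (SIANK 1) and 12508 bp (SIANK 2). No peak there exceeded 6081 bp, so the domain is a row of peaks whose gaps fall at different places in different lists.

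The domain on chromosome 1 from 221197907 to 221209803 (11897 bp) held the longest single peak, 11191 bp of H3K23ac in NC 2. The other H3K23ac lists covered 9532 bp in 2 peaks (NC 1), 8248 bp in 3 peaks (SIANK 1) and 11293 bp in 2 peaks (SIANK 2), so SIANK was lower than NC in number 1 and higher in number 2. It was also the domain, among the 10 longest, that H3K27ac NC 1 covered most (3569 bp), beside 10347 bp in NC 2, 6849 bp in SIANK 1 and 10064 bp in SIANK 2. A second long domain on chromosome 1, from 221152048 to 221162747 (10700 bp), lay in the same neighbourhood, and 3 domains there spanned 57756 bp.

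The other domains among the 10 longest were on chromosome 18 from 55887486 to 55898692 (11207 bp), chromosome 9 from 119088839 to 119099815 (10977 bp), chromosome 10 from 82750435 to 82761123 (10689 bp), chromosome 3 from 148400186 to 148410550 (10365 bp), chromosome 8 from 75683315 to 75693593 (10279 bp), chromosome 11 from 72445404 to 72454912 (9509 bp) and chromosome 1 from 165958806 to 165968286 (9481 bp). All 10 carried H3K23ac in its 4 lists and H3K27ac in both number 2 lists, and none carried H4K5ac in any list. H3K27ac NC 1 had no peak in 4 of them, those on chromosomes 18 and 10, at 148400186 on chromosome 3 and at 165958806 on chromosome 1. On chromosome 18 a single H3K27ac peak spanned 10628 bp in NC 2 and another 10498 bp in SIANK 2, while H3K23ac NC 1 was split into 6 peaks with 6525 bp in all.

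**Figure D3:**
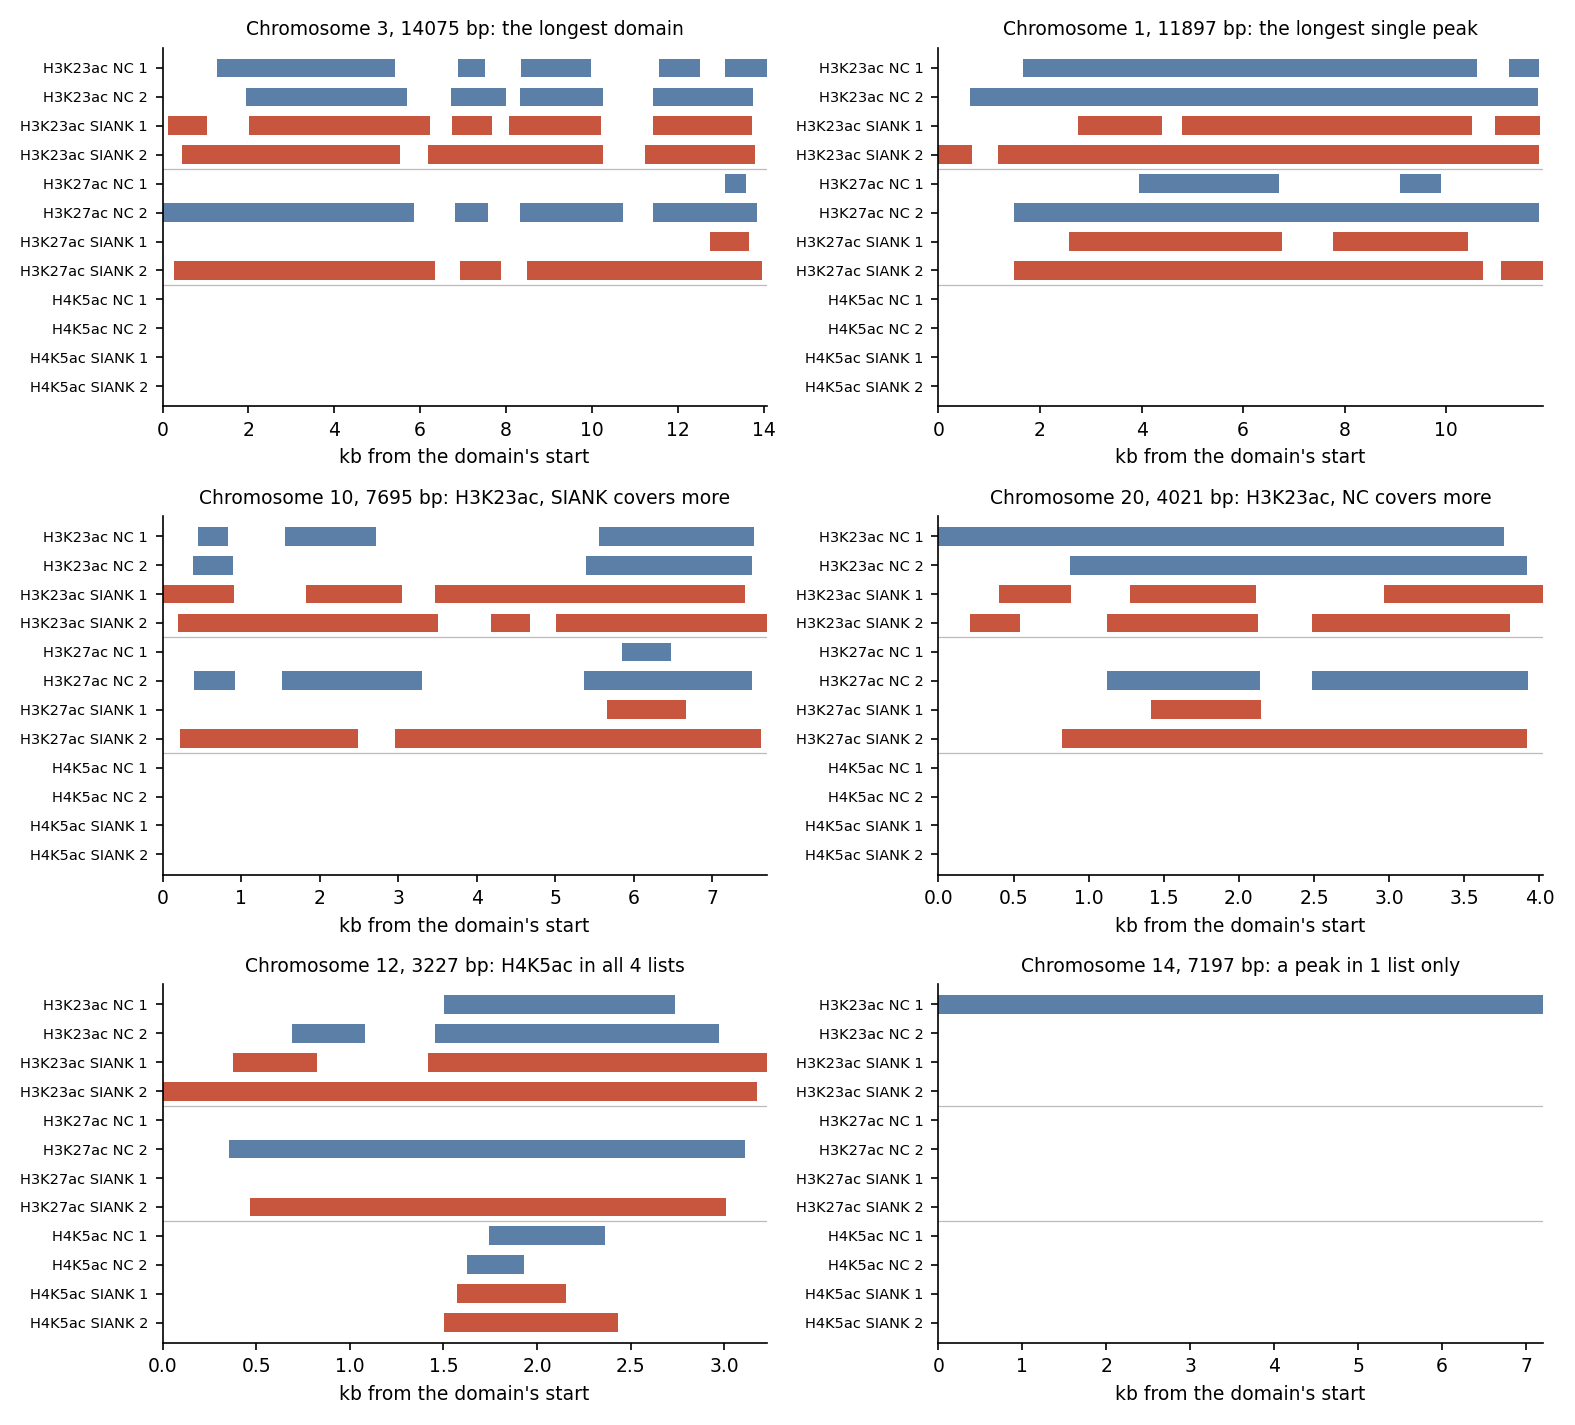
Peaks of each list (bars, NC blue and SIANK red) in 6 domains, against distance in kb from the domain's start. The gaps fall at different places in different lists, H4K5ac is seen only in the domain on chromosome 12, and the domain on chromosome 14 is 1 peak of 7197 bp in H3K23ac NC 1.

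SIANK lists covered more of the domains than NC lists of the same mark and number in all 6 pairs. The covered length was 1642 kb in NC and 1819 kb in SIANK (1.11 times) for H3K23ac number 1 and 1692 kb against 2321 kb (1.37 times) for number 2. For H3K27ac it went from 260 to 613 kb (2.35 times) in number 1 and from 1995 to 2167 kb (1.09 times) in number 2. For H4K5ac it went from 1.06 to 7.93 kb (7.47 times) and from 4.69 to 40.6 kb (8.66 times). The largest steps for H3K23ac and H3K27ac thus sat in different numbers. The SIANK list as a whole was also longer than the NC list in each pair. The share of a list's own bp that lay in these domains was 14.5% and 17.0% in NC and 14.5% and 13.2% in SIANK for H3K23ac. It was 13.9% and 14.8% against 15.6% and 14.4% for H3K27ac, and 2.36% and 2.54% against 3.28% and 4.30% for H4K5ac. All 12 lists took part in choosing the domains, so these values and the counts by domain below are a description without a test.

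Domain by domain, SIANK covered more H3K23ac bp than NC in 439 of 675 domains in number 1 (65.0%, background 46.3% of all merged regions with the mark) and in 623 in number 2 (92.3%, background 72.7%). NC covered more in 236 (35.0%, background 34.3%) and 45 (6.67%, background 7.68%). SIANK covered more in both numbers in 407 domains (60.3%, exact 95% binomial interval 56.5 to 64.0). The interval here and below covers counting over domains only. Over all 21083 merged regions with an H3K23ac peak, SIANK covered more in both numbers in 32.2%. NC covered more in both numbers in 13 domains (1.93%), beside 2.13% of all those regions. Both SIANK lists lay above both NC lists in 281 domains (41.6%, background 25.7%), and both NC lists above both SIANK lists in 8 (1.19%, background 1.01%). The shares with SIANK higher were above their backgrounds and those with NC higher near theirs. These backgrounds include regions with no peak in either list of a number. Such regions cannot differ in that number, and short regions are often among them. Among regions with H3K23ac in all 4 lists, SIANK covered more in both numbers in 59.9% of domains, 50.7% of regions from 1000 to under 3000 bp and 46.8% of regions under 1000 bp. Long peaks also helped choose the domains, and 240 had a peak of at least 3000 bp only in SIANK lists against 45 only in NC lists. The comparison with the background, here and below, is therefore partly fixed in advance. On the 390 domains chosen without H3K23ac, SIANK covered more of it in both numbers in 57.7%.

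For H3K27ac, SIANK covered more than NC in 424 domains in number 1 (63.3% of 670, background 25.9%) and less in 15 (2.24%, background 2.73%). Only 439 domains had a peak in either number 1 list. Among regions with H3K27ac in all 4 lists, SIANK 1 covered more than NC 1 in 96.1% of domains and 86.9% of all merged regions. It covered less in 3.89% and 12.6% of them. In number 2 SIANK covered more in 432 (64.5%, background 58.3%) and less in 238 (35.5%, background 39.1%). It covered more in both numbers in 278 of 670 domains (41.5%, interval 37.7 to 45.3), beside 14.0% of the 16864 merged regions with an H3K27ac peak, and less in both in 7 (1.04%, background 1.1%). With the numbers crossed the count was 23 domains (3.43%), which is the same as the count in which both SIANK lists lay above both NC lists (background 4.06%). No domain had both NC lists above both SIANK lists (background 0.291%). Among regions with H3K27ac in all 4 lists, SIANK covered more in both numbers in 63.0% of domains, 50.2% of regions from 1000 to under 3000 bp and 39.1% of shorter ones. NC covered more in both in 1.95%, 6.55% and 8.09% of them, in the same order. For H4K5ac, SIANK covered more in 14 of 56 domains in number 1 (25%, background 24.9%) and in 54 in number 2 (96.4%, background 90.1%), and NC covered more in 2 in each (3.57%, background 1.64% and 6.27%). SIANK covered more in both numbers in 14 (25%, interval 14.4 to 38.4), beside 20.4% of the 1834 merged regions with the mark, and NC in 1 (1.79%, background 0.273%). Both SIANK lists lay above both NC lists in 13 (23.2%, background 17.1%), and the reverse held in 1 (background 0.109%). Apart from counts of 1 or 2 domains, the H4K5ac shares were near those of all merged regions.

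**Figure D4:**
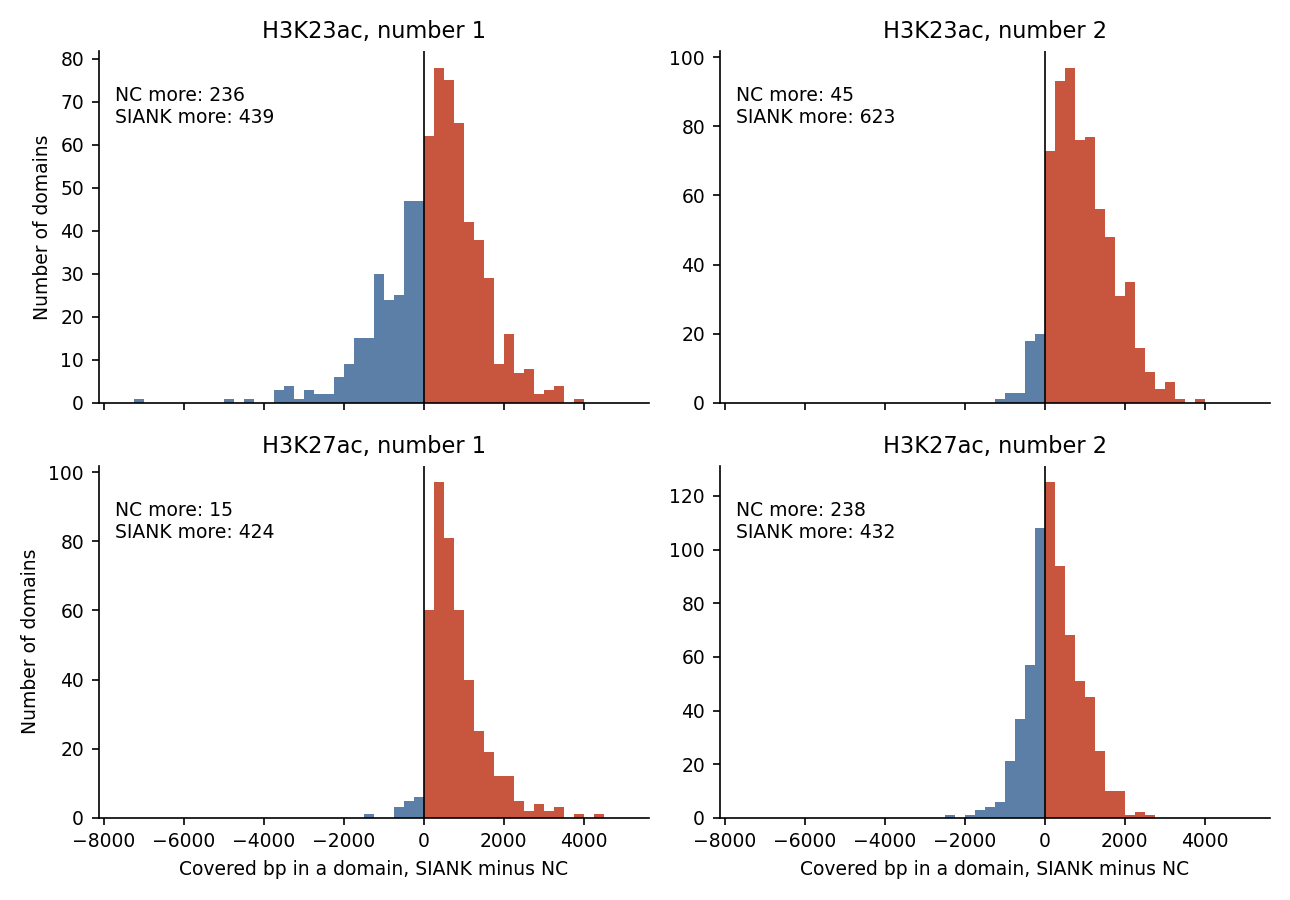
Histograms of the covered bp in a domain, SIANK minus NC of the same number (x axis), against the number of domains (y axis), for domains with a peak in either list, NC higher in blue and SIANK higher in red. The shift to SIANK is clearest for H3K23ac number 2 (623 against 45) and H3K27ac number 1 (424 against 15).

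For H3K23ac, and for H3K27ac number 2, most of the length that SIANK lists added lay outside the span of the NC peaks. Where the NC list had 1 peak in a domain, all added length counts as outside. This held in 363 domains for H3K23ac NC 1, 379 for H3K23ac NC 2 and 366 for H3K27ac NC 2. The split is therefore partly fixed in advance. For H3K23ac the median difference per domain was 384 bp in number 1 (quartiles −329 and 977.5 bp) and 836.5 bp in number 2 (399.75 and 1425 bp). SIANK 2 covered 689 kb that NC 2 did not. Of this, 69.2% lay outside the span of the NC 2 peaks of the domain, 29.5% between them and 1.32% in domains without an NC 2 peak. Number 1 had a like split (64.8%, 27.7% and 7.43% of 535 kb), but NC 1 also covered 358 kb that SIANK 1 did not, against 59.8 kb for NC 2 over SIANK 2. For H3K27ac number 1, 47.0% of the 362 kb added lay in the 177 domains that had a SIANK 1 and no NC 1 peak, and for number 2 the 366 kb added lay 59.5% outside and 39.8% between the NC 2 peaks.

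Domains with 2 or more peaks in 1 list and a single peak in the other were found in both directions. Only peak numbers were compared, and whether the single peak spans the separate ones was not tested. Of 285 domains with 2 or more H3K23ac peaks in NC 2, 156 (54.7%) had a single peak in SIANK 2, and of 199 split in SIANK 2, 67 (33.7%) had a single peak in NC 2. In number 1 the shares were 36.0% of 292 and 39.2% of 332, the reverse order. For H3K27ac number 2 they were 43.6% of 303 and 27.5% of 236. The bases that H3K23ac SIANK lists added carried H3K27ac in NC 2 at 59.5% (number 1) and 50.7% (number 2), against 46.3% and 27.1% of the domain bp that neither H3K23ac list of that number covered. The order was not the same for every list compared. The bases that H3K27ac SIANK 2 added carried H3K23ac in NC 2 at 27.7% against 11.1%, but in NC 1 at 27.3% against 33.1%. Position within the domain was not held fixed in these comparisons, and the coverage of the H3 lists falls at the domain ends by construction.

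To compare the conditions with values that took no part in the choice, domains for each mark were merged again from the lists of the other 2 marks. The choice was still not free of condition, since it used the SIANK and NC lists of those other marks. Over all marks, SIANK lists alone gave 570 regions of at least 3000 bp and NC lists alone gave 325. On the 390 domains found without H3K23ac, its NC lists covered 1027 and 1124 kb and its SIANK lists 1150 and 1401 kb, a ratio of geometric means of 1.18 (log2 0.24, SE 0.16). On the 544 found without H3K27ac, its NC lists covered 218 and 1639 kb and its SIANK lists 519 and 1744 kb, a ratio of 1.59 (log2 0.67, SE 1.70). On the 673 found without H4K5ac, its NC lists covered 1.06 and 4.35 kb and its SIANK lists 6.93 and 38.0 kb, a ratio of 7.55 (log2 2.92, SE 1.60). SIANK was above NC in every pair of lists for H3K23ac and H4K5ac, and overlapped NC for H3K27ac. The exact two-sided permutation test over libraries gave p = 0.3333, 0.667 and 0.3333, where 0.3333 is the smallest that 2 libraries against 2 allow. Over the 3 marks the ratio was 2.42 (log2 1.28, SE 0.78), with p = 0.120 in the exact permutation within marks (smallest possible 0.00926) and 0.667 after Benjamini-Hochberg adjustment over 8 tests. None of these passed the 0.05 threshold. Permutations over or between marks, here and below, take the libraries of the 3 marks as independent, which the labels do not state. The value over the marks depended on H4K5ac and on single lists. Without H4K5ac the log2 ratio over the marks was 0.46 (exact permutation p = 0.389). It was 1.74 without H3K27ac NC 2 and 0.79 without H3K27ac NC 1. The H3K27ac log2 ratio turned to −0.79 without NC 1 and to −0.20 without SIANK 2.

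The SIANK lists did not place a larger part of their length in domains for H3K23ac. The share of the list's own bp that fell in the domains chosen without the mark was 9.09% and 11.3% in H3K23ac NC and 9.15% and 7.95% in SIANK, a difference of −1.65 percentage points (SE 1.26, exact permutation p = 0.667). For H3K27ac it was 11.6% and 12.2% in NC and 13.2% and 11.6% in SIANK, a difference of 0.53 points (SE 0.87, exact permutation p = 1). For H4K5ac it was 2.36% in each NC list and 2.87% and 4.03% in SIANK, a difference of 1.09 points (SE 0.58, exact permutation p = 0.3333). Over the 3 marks the difference was −0.01 points (SE 0.55, exact permutation p = 0.926). The SIANK lists that covered more of the domains covered more in all 3 length classes of merged regions, and whether more of these domains is acetylated or more of each list was called cannot be told apart in lists without counts. Differences between marks in these effects had exact permutation p from 0.111 to 0.889, where 0.0556 is the smallest possible.

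The domain with the largest H3K23ac excess in SIANK was on chromosome 10 from 86846835 to 86854529 (7695 bp). NC 1 and NC 2 covered 3505 and 2630 bp, and SIANK 1 and SIANK 2 covered 6100 and 6507 bp, so the groups did not overlap. H3K27ac covered 620 and 4450 bp there in the NC lists, against 1011 and 6914 bp in the SIANK lists. The next was on chromosome 3 from 171329242 to 171335679 (6438 bp), with 0 and 2988 bp of H3K23ac in NC against 3793 and 5118 bp in SIANK, and 4697 and 4705 bp of H3K27ac in NC 2 and SIANK 2. The domain on chromosome 19 from 25896018 to 25900062 (4045 bp) had no H3K23ac in either NC list and 2489 and 3049 bp in SIANK. It carried H3K27ac in both NC lists (1254 and 1041 bp), and in SIANK 2 (2087 bp) but not SIANK 1. Without the H3K23ac lists its longest merged region was 2429 bp, so it reached 3000 bp only with the H3K23ac peaks that make its excess. With equal lists, cut to the peak number of the shortest list of the mark by dropping the shortest peaks, that region was 1254 bp, and the excess of 2769 bp (mean of both numbers) was 2587 bp. The other 2 kept 7393 and 3425 bp without H3K23ac.

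Among the 13 domains with more H3K23ac in NC, the largest deficit in SIANK was on chromosome 20 from 3436846 to 3440866 (4021 bp). NC 1 and NC 2 covered 3765 and 3046 bp, each in a single peak, and SIANK 1 and SIANK 2 covered 2372 and 2649 bp, each in 3 peaks. H3K27ac was not lower there in SIANK, with 0 and 2452 bp in the NC lists against 732 and 3092 bp in the SIANK lists. The next largest was on chromosome 3 from 164680667 to 164685995 (5329 bp), with 4452 and 3943 bp in the NC lists against 3057 and 3868 bp in the SIANK lists. It was followed by chromosome 2 from 141273840 to 141277019 (3180 bp), with 2735 and 2844 bp against 1631 and 2586 bp. In these 3 the difference in number 2 was smaller than in number 1. Without the H3K23ac lists they were 3098, 5143 and 2501 bp long, so the domain on chromosome 2 reached 3000 bp only with them.

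For H3K27ac the largest excess in SIANK was on chromosome 3 from 9542477 to 9550655 (8179 bp), with 535 and 5819 bp in the NC lists against 4461 and 6735 bp in the SIANK lists. It was followed by chromosome 19 from 26091102 to 26098491 (0 and 5695 bp, then 2948 and 7182 bp) and chromosome 6 from 2346108 to 2351405 (0 and 4187 bp, then 3436 and 4791 bp). In all 3 the number 1 step made most of the difference, and SIANK 1 stayed below NC 2. H3K23ac was present in its 4 lists in each of them. Of the 7 domains with less H3K27ac in both SIANK lists, the largest deficit in SIANK was on chromosome 4 from 77401092 to 77407904 (386 and 5469 bp in NC, 0 and 3720 bp in SIANK). H3K23ac in that domain covered 4498 bp in NC 1 against 927 bp in SIANK 1, and 3707 bp in NC 2 against 5738 bp in SIANK 2. The domains on chromosome 10 from 109420830 to 109425363 (393 and 3832 bp, then 375 and 3021 bp) and from 104572514 to 104576103 (1951 and 1228 bp, then 1232 and 1195 bp) differed by little in at least 1 number. The mean difference of −414.5 bp at 109420830 was −1257.5 bp with equal lists, as above. The domain at 104572514 had a longest region of 922 bp without H3K27ac and 2116 bp with equal lists. The other 5 domains named for H3K27ac were at least 4534 bp long without it.

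H4K5ac was sparse in broad domains. It had 2 and 11 peaks in them in NC 1 and NC 2 and 15 and 62 in SIANK 1 and SIANK 2, and its longest peak there was 1381 bp. Of the 56 domains with the mark, 37 had it in 1 list, 14 in 2, 4 in 3 and 1 in all 4. When regions were merged from the 8 H3 lists alone, which keeps H4K5ac out of the choice, 54 of 673 regions of at least 3000 bp had an H4K5ac peak (8.02%, exact 95% interval 6.08 to 10.3). The share was 8.91% among regions from 2000 to under 3000 bp, 8.08% among those from 1000 to under 2000 bp and 4.19% among shorter ones. A longer region offers more room for a peak, so the number of peaks per Mb was compared as well.

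Per Mb, each H4K5ac list had fewer peaks in the broad H3 domains than in the shorter H3 regions. NC 1 had 0.734 peaks per Mb in domains and 3.36 in all shorter regions, and NC 2 had 3.67 and 12.7. SIANK 1 had 4.77 and 15.0, and SIANK 2 had 21.3 and 55.1. The density in domains was also below that of each of the 3 shorter classes in every list. The ratio was 0.297 (log2 −1.75 ± 0.34, SD, n = 4 libraries), in the same direction in 4 of 4, and the exact two-sided sign-flip test over libraries gave p = 0.125, the smallest that 4 libraries allow. By covered bp the ratio was 0.326 (log2 −1.62 ± 0.43, SD, n = 4 libraries). This comparison was added after the lists had been examined, and NC 1 rests on 2 peaks in domains. SIANK 2 had 58 peaks in 52 domains, and 546 peaks in 544 regions from 1000 to under 2000 bp. Where regions with the mark mostly hold 1 peak whatever their length, peaks per Mb fall as length grows.

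**Figure D5:**
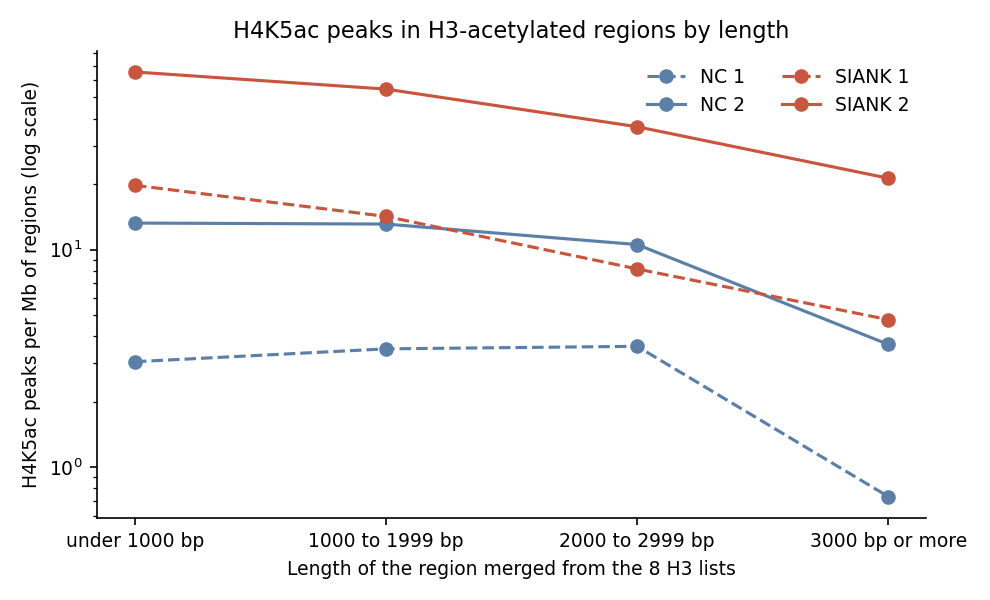
H4K5ac peaks per Mb (y axis, log scale) in regions merged from the 8 H3 lists, by region length (x axis), for NC (blue) and SIANK (red), number 1 dashed and number 2 solid. All 4 lists are lowest in regions of at least 3000 bp, where they run from 0.734 to 21.3 peaks per Mb.

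Where H4K5ac occurred in a domain, it sat on bases that more H3 lists covered than the mean base there. Of the 42729 bp with H4K5ac in any list, 96.1% also carried H3K23ac, near the 95.5% of all domain bp. H3K27ac was carried by 94.9%, against 87.2% of all domain bp. The 3.07% that carried neither lie in a domain only because an H4K5ac list covers them. A base under H4K5ac was covered by 6.20 of the 8 H3 lists on average, against 4.78 over all bases of the same 56 domains. All 8 H3 lists covered 21.02% of the H4K5ac bases and 10.7% of the bases of those domains. Both comparisons take in the domain ends, where coverage falls by construction. The domains with H4K5ac were not longer than the rest, with a median of 3467.5 bp against 3651 bp.

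The domain with H4K5ac in all 4 lists was on chromosome 12 from 43737599 to 43740825 (3227 bp). H4K5ac covered 620 and 301 bp of it in the NC lists, against 586 and 929 bp in the SIANK lists, so the groups overlapped. H3K23ac covered 1231 (NC 1), 1908 (NC 2), 2259 (SIANK 1) and 3174 bp (SIANK 2), and H3K27ac was found in NC 2 (2755 bp) and SIANK 2 (2544 bp) only. Among domains with 3 H4K5ac lists, that on chromosome 6 from 110845899 to 110849752 (3854 bp) had the most, with 0 and 1020 bp in the NC lists against 735 and 1598 bp in the SIANK lists. The others were on chromosome 3 from 13835915 to 13839129 (0 and 337 bp, then 578 and 1459 bp), chromosome 4 from 169032655 to 169035913 (0 and 425 bp, then 432 and 946 bp) and chromosome 14 from 33051294 to 33054401 (0 and 414 bp, then 614 and 681 bp). In these 4, NC 1 was the list without a peak.

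The largest H4K5ac excess in SIANK was on chromosome 16 from 20482126 to 20489556 (7431 bp), with 625 and 1905 bp in SIANK and none in NC, followed by chromosome 1 from 201525747 to 201529193 (629 and 1329 bp in SIANK, none in NC) and the domain at 13835915 on chromosome 3. That last domain was 2748 bp long without H4K5ac, so it reached 3000 bp only with an H4K5ac peak of 986 bp in SIANK 2 at its edge, and its mean excess of 850 bp was 0 bp with equal lists. The domain at 201525747 kept its 3447 bp without H4K5ac but was 2851 bp long with equal lists. H3K23ac NC 1 spanned the whole chromosome 16 domain in a single peak of 7431 bp, and the other H3K23ac lists covered 3065 (NC 2), 5573 (SIANK 1) and 6333 bp (SIANK 2). Only 1 domain had more H4K5ac in both NC lists, on chromosome 10 from 86016347 to 86019557 (3211 bp), with 442 and 375 bp in NC and none in SIANK, a mean difference of −408.5 bp that was −221 bp with equal lists. H3K27ac SIANK 2 covered 3138 bp of it in a single peak, and NC 2 covered 914 bp.

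A few domains rested on H3K23ac NC 1 alone. In 4 domains this list had the only peak of all 12, on chromosome 1 from 80213902 to 80217281 (3380 bp) and at 3 neighbouring places on chromosome 14, from 83341541 to 83348737 (7197 bp), from 83349481 to 83352946 (3466 bp) and from 83356478 to 83360753 (4276 bp). The last 3 lie within 19213 bp. In 2 more, on chromosome 3 from 175824934 to 175828605 and chromosome 6 between 136142023 and 136145722, NC 1 covered the whole 3672 and 3700 bp and 1 other list covered 364 bp (H3K23ac SIANK 1) and 538 bp (H3K27ac NC 2). The 5 domains without H3K27ac in any list were the first 4 and that at 175824934 on chromosome 3. No other list was alone in a domain. These 6 were singled out after their values had been seen.

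The share of merged regions that were domains differed by chromosome around the overall 2.89%, without a test of the spread. Domains made up 4.36% of the merged regions of chromosome 6 (51 domains, exact 95% interval 3.27 to 5.70), and 3.82% on chromosome 10 (74 domains, 3.01 to 4.77). Chromosomes 20, 7, 19, 3 and 18 followed with 3.72%, 3.65%, 3.64%, 3.52% and 3.42%, each with an interval that includes the overall share. The shares on chromosome 11 (8 domains, 1.21%, 0.525 to 2.37) and chromosome X (4 domains, 1.17%, 0.321 to 2.98, which includes the overall share) were the lowest among chromosomes with a domain. Chromosome 13 had the next lowest share (12 domains, 1.63%, 0.843 to 2.82), with an interval below the overall share. Chromosome Y, with 5 merged regions, had no domain. Domains lay near other marked regions. The nearest merged region was a median of 2541 bp away, against 8232 bp for regions from 1000 to under 3000 bp and 8792.5 bp for shorter ones. The distance between neighbouring domains had a median of 852 kb, but 64 of 654 neighbouring pairs lay within 10 kb. Linking domains up to 50 kb apart placed 215 of them in 90 groups of 2 to 4. The 6 groups of 4 included 1 on chromosome 18 from 55874500 to 55922645, which holds the 11207 bp domain, and 1 on chromosome 3 from 171317339 to 171342609, which holds the 6438 bp domain described above.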

How the data were processed

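CUT&Tag peak lists of 12 libraries were used, 1 per library. Per the file headers, the authors deposited chromosome, start, end and length (bp) of each peak, with no count, score or p-value, so depth is unknown. BWA and deepTools are named in the submitters' processing notes. The genome build, peak caller, threshold and control were not given in the sources used here. Of the 675 domains, 16 lay beyond the last gene of GRCr8, so that annotation was not applied. Groups came from sample titles. Peaks were merged at 1 bp overlap and regions of 3000 bp or more kept. The named domains were the 10 longest, up to 3 per mark and direction with the largest mean SIANK minus NC length among those that differed alike in both numbers, and the 5 with H4K5ac in most lists. Members and lists were chosen with earlier results of these data known. Tests were exact permutations over libraries, on domains merged without the tested mark. The labels do not pair same-numbered libraries, so the tests are unpaired. The merging was tested on simulated data and against bedtools 2.31.1, and the permutation test on simulated data. Python 3.11.15, numpy 2.4.6, pandas 2.3.3, scipy 1.17.1 and matplotlib 3.10.9 were used.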

Additional observations from a re-analysis of the deposited data

How the results depend on the processing

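Peak lists without counts limit every value here to what was called. The main results were recomputed 133 times under other settings: 104 values stayed on their side of the threshold or near the reported value, 14 moved, 13 changed sign and 2 passed the threshold (the block below, and the ratio over the marks without H3K27ac NC 2). The number of domains (675) was 2430 at 2000 bp, 88 at 5000 bp, 1252 with peaks within 1000 bp merged, 448 where 2 lists had to cover 3000 bp and 446 without both number 2 SIANK lists of the H3 marks (chosen after seeing the data), and 562 to 675 without each library in turn. The percent of domains that SIANK covers more in both numbers, 60.3 for H3K23ac, was 55.7 at 2000 bp, 54.5 with an excess of 100 bp and 51.1 with crossed numbers. For H3K27ac (41.5) it was 31.6 at 2000 bp, 59.8 at 5000 bp, 34.8 with an excess of 100 bp, 31.8 with equal lists and 3.43 with crossed numbers. For H4K5ac (25) it was 10 at 5000 bp. Permuting within the replicate number as a block gave the log2 ratio of 1.28 over the 3 marks an exact p of 0.03125, the smallest it allows, and changed no other call. The labels do not say that the numbers pair libraries, and deviations over domains of same-numbered libraries correlated at −0.01 (H3K23ac), 0.65 (H3K27ac) and 0.25 (H4K5ac). Without each library in turn, the log2 ratio of covered length ran from 0.10 to 0.38 for H3K23ac, −0.79 to 2.13 for H3K27ac, 1.69 to 4.14 for H4K5ac and 0.79 to 1.74 over the marks. The difference in percent of list bp ran from −2.76 to −0.54, −0.30 to 1.35, 0.50 to 1.67 and −0.40 to 0.59 points in the same order. That difference reversed to −0.41 (H3K27ac) and −3.70 (H4K5ac) at 2000 bp, to −0.93 (H4K5ac) with peaks within 1000 bp merged, and over the marks to 0.062 at 5000 bp and 1.70 with equal lists. The cause was not tested. Domains of 5000 bp gave no log2 ratio for H4K5ac, as a library covered 0 bp of them. The log2 H4K5ac density ratio of −1.75 was −0.85 at 2000 bp, −1.51 with peaks within 1000 bp merged and −1.88 to −1.61 without each library in turn.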
